A study of Mus musculus with 30 samples.

Results

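Leukocyte integrins and their adhesion ligands were followed in microglia and astrocytes sorted from mouse spinal cord. The members were the protein-coding genes named Itgam, Itgal, Itgb2, Itgb1, Itgb5, Itga6, Itgav, Icam1, Vcam1 and Selplg in the annotation deposited with the expression table, and 10 of the 30952 genes in that table matched. Experimental autoimmune encephalomyelitis (EAE), an autoimmune model of multiple sclerosis, was induced in female C57BL/6 mice by immunization with a myelin oligodendrocyte glycoprotein (MOG) peptide. From a clinical score of around 1, EAE-vehicle mice received 20% Captisol and EAE-RIPK1inh mice received 50 mg/kg of GSK'547, an inhibitor of the kinase RIPK1, by oral gavage 2 times a day for 3 days. Naive mice of the same strain were the third group. Each cell type was represented by 4 naive, 6 EAE-vehicle and 5 EAE-RIPK1inh libraries.

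Integrins are paired receptors in which an alpha chain and a beta chain together bind a ligand on another cell or in the matrix. The beta 2 integrins are the receptors of leukocytes: the product of Itgb2 pairs with that of Itgam to form Mac-1 (CD11b/CD18) and with that of Itgal to form LFA-1, and both bind ICAM-1. VCAM-1 is a ligand of alpha 4 beta 1 integrin, and PSGL-1, the product of Selplg, is the ligand through which leukocytes roll on selectins. In spinal cord, these pairs are best known for the arrest of blood leukocytes on inflamed vessels, and microglia carry beta 2 integrins as tissue macrophages.

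The beta chains share a signature at the end of their coding sequence that binds talin and kindlin, the proteins that switch an integrin on. The last 150 coding bases of the principal transcripts Itgb1-201, Itgb2-201 and Itgb5-202 are shown because these 3 genes are the beta chains among the members, whose levels are followed below, and because their tails differ in that signature. Sequences were taken from the GENCODE M21 annotation of GRCm38, read on the + strand, on which all 3 genes lie. Capitals mark each run of codons for asparagine, proline, any residue and then tyrosine or phenylalanine.
Itgb1: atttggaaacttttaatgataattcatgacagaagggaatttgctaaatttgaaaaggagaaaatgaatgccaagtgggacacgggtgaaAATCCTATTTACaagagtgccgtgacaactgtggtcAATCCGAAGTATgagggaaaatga
Itgb2: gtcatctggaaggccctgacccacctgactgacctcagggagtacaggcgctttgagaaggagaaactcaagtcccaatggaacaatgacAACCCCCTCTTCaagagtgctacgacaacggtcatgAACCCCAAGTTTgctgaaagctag
Itgb5: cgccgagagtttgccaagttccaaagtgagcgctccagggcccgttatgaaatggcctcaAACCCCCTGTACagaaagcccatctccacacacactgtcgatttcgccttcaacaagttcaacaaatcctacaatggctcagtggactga
Itgb1 and Itgb2 held 2 such runs and Itgb5 held 1, and 0.81% of 21466 genes had at least 1 in their last 150 coding bases.

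The values were FPKM (fragments scaled to exon length and to the mapped fragments of the library) on a log2 scale, normalized by the authors so that every library holds the same sorted values. A level in the text is such a value. Levels of different genes are set side by side as a description only. They are divided by exon length, but how evenly the amplified RNA covered each transcript was not tested. Genes without signal in a library sat at low values set by the normalization, which are called without signal here. The highest such value differed by library, from 0.0 in naive astrocyte replicate 1 to 2.74 in EAE-vehicle astrocyte replicate 1. It was 1.74 in naive microglia replicate 4 and 1.69 in naive astrocyte replicate 2. Low levels are therefore not directly comparable between libraries. The number of genes with signal ran from 8710 to 20398 in microglia and from 6728 to 22981 in astrocytes, and within a group libraries correlated at 0.808 to 0.976 in microglia and at 0.569 to 0.883 in astrocytes, across genes. Naive microglia replicate 4, naive astrocyte replicate 2 and EAE-vehicle astrocyte replicate 1 had under 9000 genes with signal, and the counts that follow were also made without these 3 libraries, a choice made after seeing the data. A difference called in the text passed an adjusted p of 0.05 in limma, with Benjamini-Hochberg adjustment over every gene tested in that comparison. Counts at the looser criterion of the study, a fold change over 1.5 with an unadjusted p under 0.05, are given beside it. Shares of all genes include many genes near the floor and would be higher among expressed genes. With genes under a mean level of 1 left out, 1040 of 10413 rose and 679 fell in EAE-vehicle against naive microglia. In astrocytes 223 of 11243 rose and 222 fell.

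Markers of the labelled cell types were high in their own libraries. The mean of 8 astrocyte markers lay between 7.85 and 9.39 in astrocyte libraries and between 0.99 and 2.12 in microglial ones, and the mean of 10 homeostatic microglia markers between 7.18 and 10.62 in the microglial and between 0.87 and 3.45 in the astrocyte libraries. Microglia had been gated as CD11b+ CD45int CX3CR1+ cells and astrocytes as GLAST+ cells negative for CD11b, CD45 and CD140a, so the product of Itgam was itself a gate and its difference between the cell types is a description. Astrocyte libraries also held other RNA: the mean of 6 oligodendrocyte markers was 5.89 to 10.09 there, above that of the astrocyte markers in several EAE libraries, and at most 2.68 in microglia. The mean of 9 T cell markers was 0.61 to 1.29 in naive astrocyte libraries, 1.45 to 6.08 in EAE-vehicle and 1.41 to 5.84 in EAE-RIPK1inh ones, although the gate was CD45 negative, and 0.11 to 2.35 in the microglial libraries. Because each library is a bulk sample, fewer cells of a type and less RNA per cell cannot be told apart in any value given here.

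In naive microglia, Selplg stood far above every other member at 12.41 ± 0.13 (SD, n = 4). Itgb2 (8.13 ± 0.50), Itgb5 (8.07 ± 0.41) and Itgam (7.83 ± 0.57) came next and overlapped one another. Itga6 (6.36 ± 0.38), Icam1 (6.05 ± 0.86) and Itgb1 (6.00 ± 0.45) formed a lower set that overlapped as well, and Itgav followed at 4.84 ± 0.23. Vcam1 and Itgal were each without signal in 2 of the 4 naive libraries.

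EAE changed 3 of the 10 members in microglia: Itgal and Vcam1 rose from low levels, each without signal in 2 of 4 naive libraries, and Selplg fell. Of all 28958 genes tested in EAE-vehicle against naive microglia, 3.92% passed, 2.37% upward and 1.56% downward. The study's criterion took in 5 members, 2 upward and 3 downward, and 12% of all genes, 6.13% upward and 5.86% downward. The groups of 3 members did not overlap, against 5.13% of all genes with signal in every library of the higher group.

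**Figure D1:**
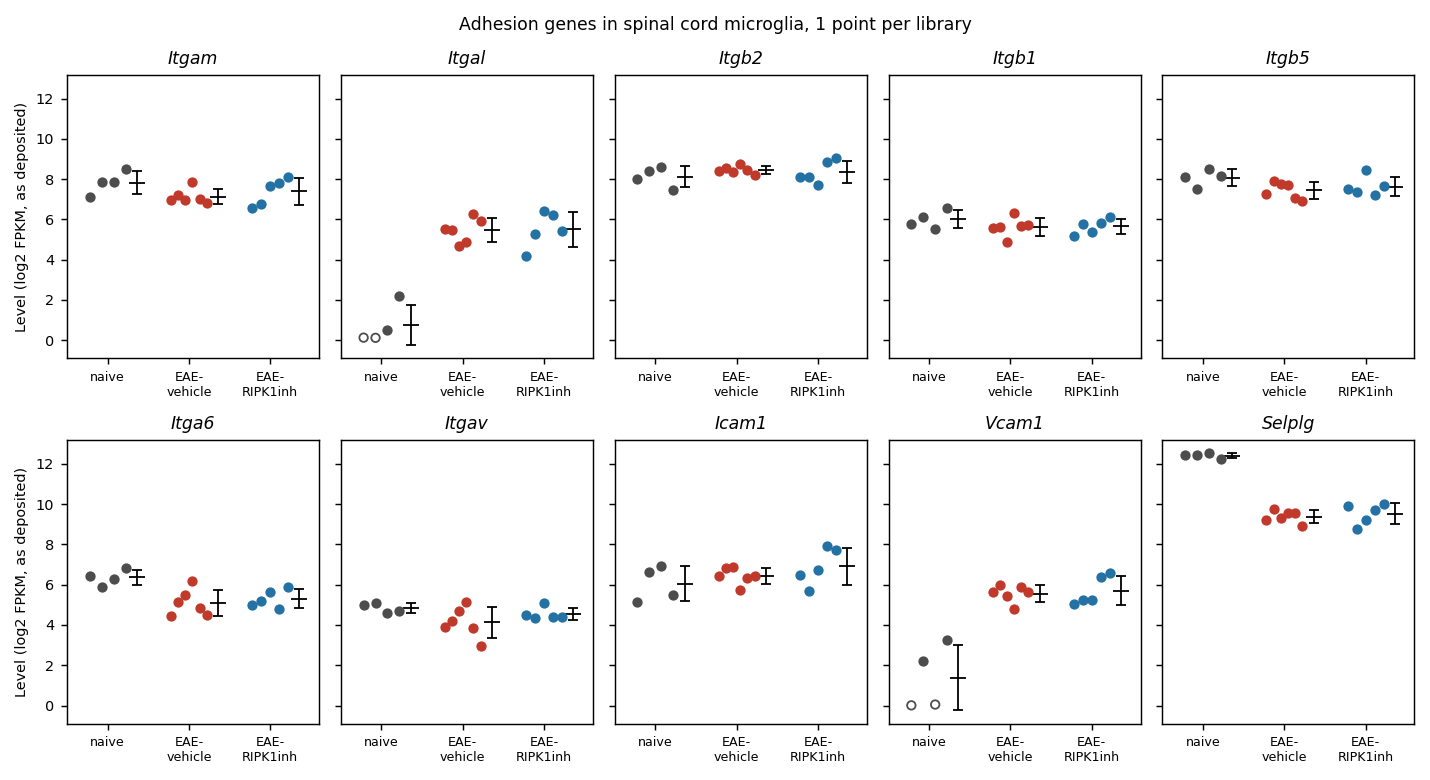
Levels of the 10 genes in microglia (vertical axes, log2 FPKM as deposited) for naive, EAE-vehicle and EAE-RIPK1inh mice, with 1 point per library, open points for libraries without signal, and the mean with its SD beside each group (n = 4, 6 and 5). Itgal and Vcam1 lie higher and Selplg lower in every EAE library than in any naive one, and the other 7 genes overlap between EAE-vehicle and naive.

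Itgal (ENSMUSG00000030830, chr7:127296260-127335138, + strand, GRCm38) encodes the alpha chain of LFA-1. Its level in the naive microglial libraries was 0.13 and 0.12, both without signal, then 0.49 and 2.21. In naive replicates 3 and 4, genes without signal read up to 0.46 and 1.74. The 6 EAE-vehicle libraries lay between 4.69 and 6.28 with a median of 5.49, and the 5 EAE-RIPK1inh libraries read 4.20, 5.27, 6.41, 6.22 and 5.42. Every EAE library thus exceeded every naive library by about 2 log2 units or more. The log2 fold change of EAE-vehicle over naive was 4.72 ± 0.50 (SE, adjusted p = 5.41e-05 in limma; exact permutation p = 0.00476, the smallest that 4 against 6 libraries allow). Because the naive values sit at the floor, this change depends on the offset in the logarithm and read 4.02 with 1 more unit of FPKM added.

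Vcam1 (ENSMUSG00000027962, chr3:116109949-116129688, - strand), which encodes the immunoglobulin-type ligand VCAM-1, behaved similarly in microglia. Naive libraries read 0.01 and 0.05, both without signal, and 2.20 and 3.25. EAE-vehicle libraries ranged from 4.77 to 5.97 with a median of 5.64, and EAE-RIPK1inh libraries read 5.06, 5.23, 5.23, 6.39 and 6.60. The lowest EAE library was higher than the highest naive one. The log2 fold change was 4.17 ± 0.58 (SE, limma adjusted p = 6.06e-04; exact permutation p = 0.00476), or 3.61 with 1 more unit added. Without naive replicate 4, the library with few genes, the same 3 members passed, with Itgal at 5.21, Vcam1 at 4.80 and Selplg at -3.08.

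Markers of blood leukocytes were compared with these rises library by library. The mean of 10 monocyte and neutrophil markers was 2.29, 2.65, 6.53 and 3.77 in naive microglia and 3.04 to 6.53 in EAE-vehicle microglia. The naive library at 6.53 had Itgal at 0.49 and Vcam1 without signal. The EAE-vehicle library with the lowest marker mean, 3.04, had Itgal at 4.90 and Vcam1 at 4.77, the latter the lowest of its group, and Itgal was lower in only 1 library of that group. No gene of that list passed in this comparison in limma, 8 of 10 were higher, and 3 met the study's criterion. F13a1 and Ccr2 were without signal in every naive microglial library, and no gene of the list was without signal in every EAE-vehicle one. T cell markers averaged 0.14 to 0.44 in naive and 0.24 to 0.95 in EAE-vehicle microglia. The part of blood leukocytes in the levels of Itgal and Vcam1 was not tested.

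Selplg (ENSMUSG00000048163, chr5:113818536-113832644, - strand) was the member that fell. Naive microglia read 12.43, 12.43, 12.55 and 12.23. EAE-vehicle libraries lay between 8.91 and 9.77 with a median of 9.42, and EAE-RIPK1inh libraries read 9.89, 8.78, 9.23, 9.73 and 10.03. The naive and EAE groups were separated by more than 2 log2 units. EAE-vehicle microglia were 8.14-fold lower than naive (log2 fold change -3.02, SE 0.23, limma adjusted p = 2.16e-06; exact permutation p = 0.00476), and Selplg still had the highest level of the 10 members, at 9.38 ± 0.31 (SD, n = 6). The 10 homeostatic microglia markers fell beside it, with 8 of 10 past the threshold and a median log2 fold change of -2.51 (all genes -0.02).

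No other integrin chain passed the adjusted threshold in microglia, although Itga6 and Itgb5 met the study's criterion as lower in EAE-vehicle. Itgam (ENSMUSG00000030786, chr7:128062640-128118491, + strand), the Mac-1 alpha chain, read 7.12, 7.84, 7.84 and 8.52 in naive libraries, 6.80 to 7.84 (median 6.98) in EAE-vehicle and 6.59, 6.77, 7.65, 7.83 and 8.12 in EAE-RIPK1inh. Itgb2 (ENSMUSG00000000290, chr10:77530252-77565708, + strand), the shared beta 2 chain, read 8.02, 8.42, 8.60 and 7.47 in naive libraries, 8.20 to 8.76 (median 8.44) in EAE-vehicle and 8.08, 8.12, 7.72, 8.84 and 9.04 in EAE-RIPK1inh. All 3 groups overlapped for both genes. Their log2 fold changes in EAE-vehicle were -0.70 ± 0.34 (adjusted p = 0.387) for Itgam and 0.33 ± 0.27 (adjusted p = 0.671) for Itgb2, neither past the threshold.

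Itga6 (ENSMUSG00000027111, chr2:71745616-71858416, + strand), the alpha chain of laminin-binding integrins, came nearest to the threshold among the others. It read 6.43, 5.91, 6.30 and 6.82 in naive microglia, 4.44 to 6.18 (median 4.98) in EAE-vehicle, and 4.99, 5.21, 5.65, 4.79 and 5.90 in EAE-RIPK1inh. A single EAE-vehicle library, replicate 4 at 6.18, reached into the naive range. The log2 fold change was -1.26 ± 0.34 (limma adjusted p = 0.0546, exact permutation p = 0.0190). Without that library it was -1.48 with an adjusted p of 0.0113, and with genes under a mean level of 1 left out of the test the adjusted p was 0.0165.

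Itgb1 (ENSMUSG00000025809, chr8:128685654-128733200, + strand), the beta chain shared by most matrix receptors, ranged from 5.54 to 6.57 in naive, 4.90 to 6.32 in EAE-vehicle and 5.17 to 6.11 in EAE-RIPK1inh microglia. Itgb5 (ENSMUSG00000022817, chr16:33829665-33949338, + strand) and Itgav (ENSMUSG00000027087, chr2:83724397-83806916, + strand) encode the chains of the vitronectin receptor alpha v beta 5. Itgb5 lay between 7.52 and 8.50, 6.92 and 7.90, and 7.21 and 8.44 in those groups, and Itgav between 4.60 and 5.07, 2.96 and 5.14, and 4.36 and 5.10. The log2 fold changes of EAE-vehicle over naive were -0.37 ± 0.28 for Itgb1, -0.63 ± 0.28 for Itgb5 and -0.71 ± 0.34 for Itgav, with adjusted p-values of 0.624, 0.318 and 0.393. The groups overlapped for each gene.

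Icam1 (ENSMUSG00000037405, chr9:21015985-21028817, + strand), the ligand of the beta 2 integrins, had signal in all 4 naive microglial libraries. Naive libraries read 5.13, 6.64, 6.93 and 5.51, EAE-vehicle libraries 5.75 to 6.89 (median 6.45), and EAE-RIPK1inh libraries 6.50, 5.68, 6.74, 7.94 and 7.73. The groups overlapped, and the log2 fold change of EAE-vehicle over naive was 0.39 ± 0.45 (adjusted p = 0.785). The 2 highest levels belonged to EAE-RIPK1inh libraries, which were also those with the highest Vcam1.

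EAE-RIPK1inh microglia were compared with EAE-vehicle microglia to ask what the inhibitor changed during EAE. None of the 10 members passed in limma, and none had an unadjusted p under 0.05 or met the study's criterion. Of all genes, 0.00345% passed the adjusted threshold and 1.76% met the study's criterion. The log2 fold changes ran from -0.10 ± 0.25 for Itgb2 to 0.47 ± 0.42 for Icam1, with 9 of 10 above 0 and a smallest adjusted p of 0.930. Itgal (0.05 ± 0.47), Vcam1 (0.15 ± 0.54) and Selplg (0.15 ± 0.22) were among them. Missing the threshold does not show that the levels were alike.

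Set against the same 4 naive libraries, EAE-RIPK1inh microglia gave 4.77 ± 0.52 for Itgal (adjusted p = 8.82e-05), 4.32 ± 0.60 for Vcam1 (adjusted p = 8.65e-04) and -2.88 ± 0.24 for Selplg (adjusted p = 7.09e-06), and 3 of 10 members passed against 2.73% of all genes. Itga6 did not overlap between these groups (-1.06 ± 0.35) but did not pass either, with an adjusted p of 0.175. The groups of 4 members did not overlap in all, against 4.55% of all genes by the same rule.

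In naive astrocytes the order of the members was another one. Vcam1 led at 6.71 ± 0.56 (SD, n = 4), above Itga6 (5.13 ± 0.87), Itgav (4.79 ± 1.15), Itgb1 (4.59 ± 0.66) and Itgb5 (4.05 ± 1.75), whose levels overlapped one another. Selplg was at 1.76 ± 1.75, with its highest library at 3.77. Icam1 (0.65 ± 0.43), Itgal (0.60 ± 0.86) and Itgb2 (0.53 ± 1.02) were lower and without signal in some libraries, and Itgam was without signal in all 4 libraries.

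**Figure D2:**
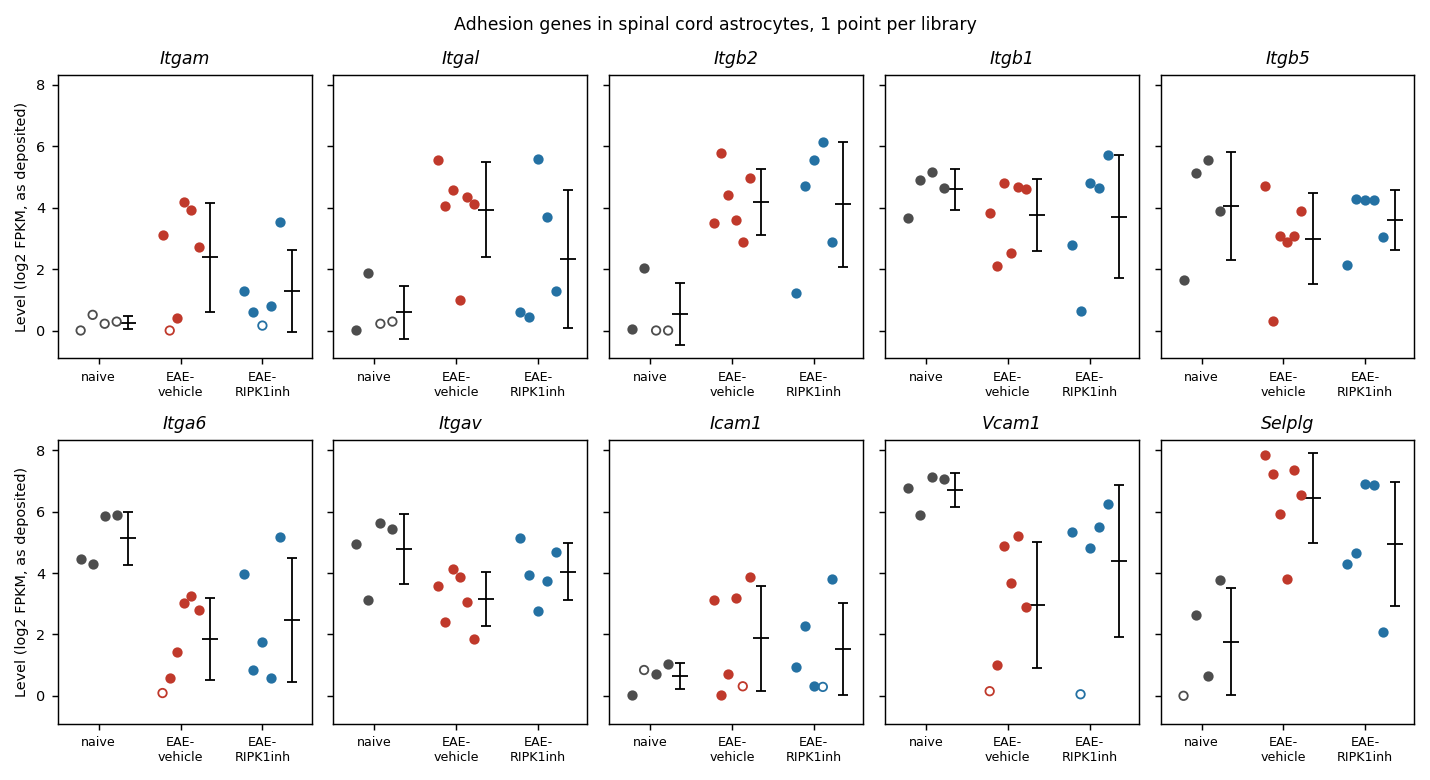
Levels of the 10 genes in astrocytes (vertical axes, log2 FPKM as deposited) for naive, EAE-vehicle and EAE-RIPK1inh mice, with 1 point per library, open points for libraries without signal, and the mean with its SD beside each group (n = 4, 6 and 5). Itgb2 and Selplg lie higher and Itga6 and Vcam1 lower in every EAE-vehicle library than in any naive one, and the spread within a group is wider than in microglia.

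In EAE-vehicle astrocytes the beta 2 integrin chains and Selplg were higher, and Vcam1, Itga6 and Itgav lower, than in naive astrocytes, but none of the 10 members passed the adjusted threshold in limma. Of all 30718 genes tested, 0.579% passed. At the study's criterion, which uses the unadjusted p, Itgal, Itgb2 and Selplg were higher and Itga6, Itgav and Vcam1 lower, against 6.71% of all genes, 2.69% higher and 4.01% lower. Itgam is left out of that count, since no naive astrocyte library had signal for it. The groups of 4 members, Itgb2, Itga6, Vcam1 and Selplg, did not overlap, against 2.18% of all genes with signal in every library of the higher group. With genes under a mean level of 1 left out of the test, 3 members passed: Itgb2 (adjusted p = 0.0239), Vcam1 (0.0312) and Selplg (0.00176). Without naive replicate 2 and EAE-vehicle replicate 1, the libraries with few genes, 0 members passed.

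Vcam1 read 6.77, 5.90, 7.12 and 7.05 in naive astrocytes. In the 6 EAE-vehicle libraries it was 0.15, without signal, then 1.01, 4.89, 3.68, 5.19 and 2.88, and in EAE-RIPK1inh it was 5.34, 0.05, without signal, 4.80, 5.49 and 6.25. Every EAE-vehicle library was below every naive one, and 1 EAE-RIPK1inh library reached the naive range. The log2 fold change of EAE-vehicle was -3.74 ± 1.17 (adjusted p = 0.282; exact permutation p = 0.00952). The astrocyte markers were lower beside it, at a mean of 8.80 to 9.39 in naive and 7.85 to 8.90 in EAE-vehicle libraries, with a median log2 fold change of -1.14 over 8 genes, of which 2 fell and 1 rose past the threshold; their part in the Vcam1 value was not tested.

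Itga6 in astrocytes was 4.45, 4.30, 5.86 and 5.89 in naive libraries, 0.09, without signal, to 3.24 (median 2.11) in EAE-vehicle, and 3.97, 0.83, 1.75, 0.58 and 5.16 in EAE-RIPK1inh. EAE-vehicle and naive did not overlap (-3.27 ± 0.94, adjusted p = 0.206). Naive replicate 4 also carried endothelial markers, at a mean of 4.67 over 6 genes against 0.23 to 0.34 in the other naive libraries. Without it the change in Itga6 was -3.01 and that in Vcam1 was -3.63. Itgav read 4.96, 3.12, 5.63 and 5.45 in naive, 1.85 to 4.12 (median 3.32) in EAE-vehicle and 5.14, 3.93, 2.76, 3.74 and 4.67 in EAE-RIPK1inh, with overlap (-1.64 ± 0.64, adjusted p = 0.511).

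The members typical of leukocytes lay at the other end. Selplg was without signal in 1 naive astrocyte library and read 2.63, 0.65 and 3.77 in the rest. It reached 7.86, 7.24, 5.91, 3.80, 7.36 and 6.54 in EAE-vehicle and 4.30, 4.64, 6.89, 6.88 and 2.07 in EAE-RIPK1inh. The lowest EAE-vehicle library, 3.80, was just above the highest naive one, 3.77, so that the groups barely separated. The log2 fold change was 4.69 ± 1.04 (limma adjusted p = 0.0640; exact permutation p = 0.00476), and Selplg passed without EAE-vehicle replicate 4 (5.22, adjusted p = 0.0257), without EAE-RIPK1inh replicate 5 (adjusted p = 0.0307) and with libraries centred on their medians (adjusted p = 0.0162).

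Itgb2 in astrocytes was without signal in 2 naive libraries and read 0.06 and 2.05 in the other two. EAE-vehicle libraries read 3.49, 5.79, 4.41, 3.59, 2.89 and 4.98, all above the naive ones, and EAE-RIPK1inh libraries 1.23, 4.70, 5.56, 6.15 and 2.89. Its log2 fold change in EAE-vehicle was 3.66 ± 0.90 (limma adjusted p = 0.102; exact permutation p = 0.00476), and it passed without EAE-RIPK1inh replicate 1 (adjusted p = 0.0436) and with quality weights (0.0258). Itgal was without signal in 2 naive libraries, with 0.01 and 1.88 in the others, and read 5.54, 4.07, 4.57, 1.00, 4.36 and 4.11 in EAE-vehicle and 0.61, 0.44, 5.60, 3.70 and 1.28 in EAE-RIPK1inh. A single EAE-vehicle library, replicate 4 at 1.00, kept the groups from separating (3.34 ± 1.04, adjusted p = 0.273). Itgam had no signal in naive astrocytes and is therefore given by its levels alone: 3.10, 0.40, 4.19, 3.91 and 2.73 in 5 EAE-vehicle libraries, no signal in the sixth, and 1.30, 0.61, 0.81 and 3.54 in 4 EAE-RIPK1inh libraries with signal.

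T cell markers varied with these genes among the astrocyte libraries. Their mean over 9 genes was 3.51, 5.69, 5.52, 1.45, 6.08 and 4.80 in EAE-vehicle replicates 1 to 6 and 1.41, 3.70, 5.84, 5.62 and 2.36 in EAE-RIPK1inh replicates 1 to 5. EAE-vehicle replicate 4, with the lowest marker mean of its group, had its lowest Itgal and Selplg levels, and the 2 EAE-RIPK1inh libraries over 5 in marker mean had its highest Itgal, Itgb2 and Selplg levels. Other values did not go with the markers: EAE-vehicle replicate 5, with the highest marker mean, had the lowest Itgb2 of its group, 2.89, and replicate 4 its highest Itgam, 4.19. All 9 T cell markers were higher in EAE-vehicle than in naive astrocytes, 1 past the threshold, with a median log2 fold change of 3.65, and Cd2, Lck and Cd3d were without signal in every naive library. The monocyte and neutrophil markers averaged 0.10 to 1.34 in naive and 1.86 to 3.79 in EAE-vehicle astrocytes, with Ly6g without signal in all of them, and oligodendrocyte markers 5.89 to 7.41 in the former and 6.68 to 10.09 in the latter. The part of other cells in the levels of Itgal, Itgb2, Itgam and Selplg in these libraries was not tested.

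**Figure D3:**
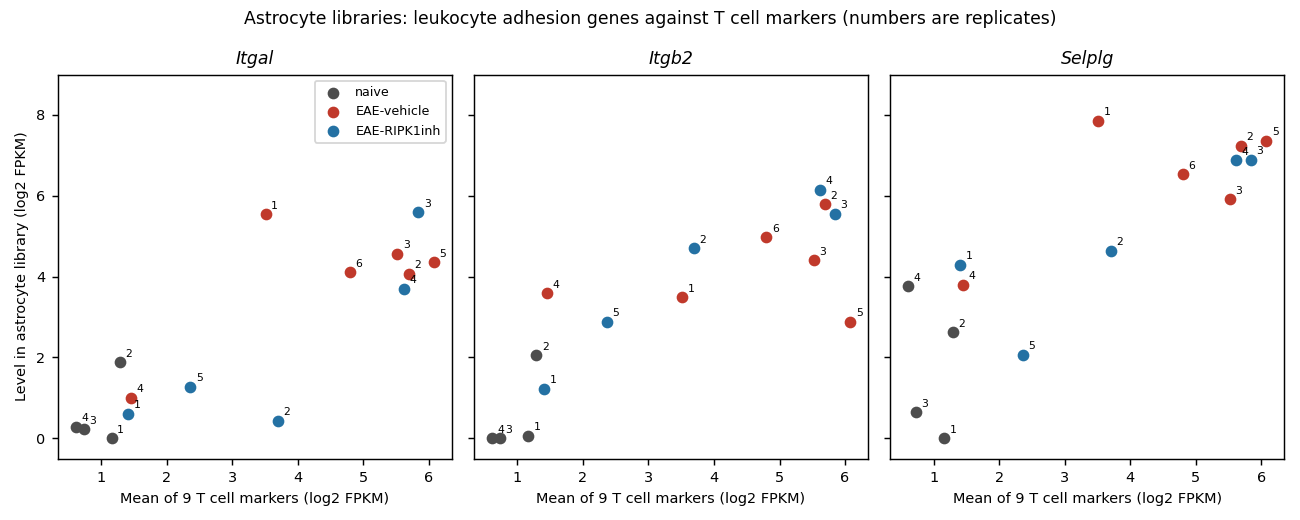
Level of Itgal, Itgb2 and Selplg in each astrocyte library (vertical axis, log2 FPKM) against the mean of 9 T cell markers in the same library (horizontal axis, log2 FPKM), colored by group and numbered by replicate. Naive libraries sit at marker means of 0.61 to 1.29, with Itgal up to 1.88, Itgb2 up to 2.05 and Selplg up to 3.77. EAE-vehicle replicate 4 (marker mean 1.45) and EAE-RIPK1inh replicate 1 (1.41) lie next to them in marker mean and within their range in Itgal.

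Itgb1, Itgb5 and Icam1 overlapped between naive and EAE-vehicle astrocytes. Itgb1 ranged from 3.66 to 5.16 in naive, 2.09 to 4.79 in EAE-vehicle and 0.65 to 5.71 in EAE-RIPK1inh libraries, and Itgb5 from 1.65 to 5.56, 0.30 to 4.72 and 2.14 to 4.28. Icam1 stayed at or under 1.02 in naive astrocytes and reached 3.87 in EAE-vehicle and 3.81 in EAE-RIPK1inh, with at least 1 library without signal in each group. Their log2 fold changes in EAE-vehicle were -0.84 ± 0.88, -1.06 ± 0.88 and 1.22 ± 0.90, with adjusted p-values of 0.837, 0.835 and 0.835.

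EAE-RIPK1inh astrocytes did not differ from EAE-vehicle astrocytes in any member past the threshold in limma, by the adjusted or the unadjusted p, and no member met the study's criterion, against 0% and 3.02% of all genes. The largest values were Itgal at -1.61 ± 0.97, Selplg at -1.50 ± 0.98 and Vcam1 at 1.42 ± 1.10, each with an adjusted p of 0.840 and with groups that overlapped. Itgav was at 0.90 ± 0.60, and Itgb2 (-0.09 ± 0.85) and Itgb1 (-0.04 ± 0.83) were near 0. The standard errors, 0.60 to 1.10, were up to several times those in microglia. Against the shared naive libraries, EAE-RIPK1inh astrocytes gave 3.58 ± 0.94 for Itgb2, 3.19 ± 1.08 for Selplg and -2.67 ± 0.98 for Itga6, the 3 members at the study's criterion, which 4.63% of all genes met; no member passed, against 0.13% of all genes.

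**Figure D4:**
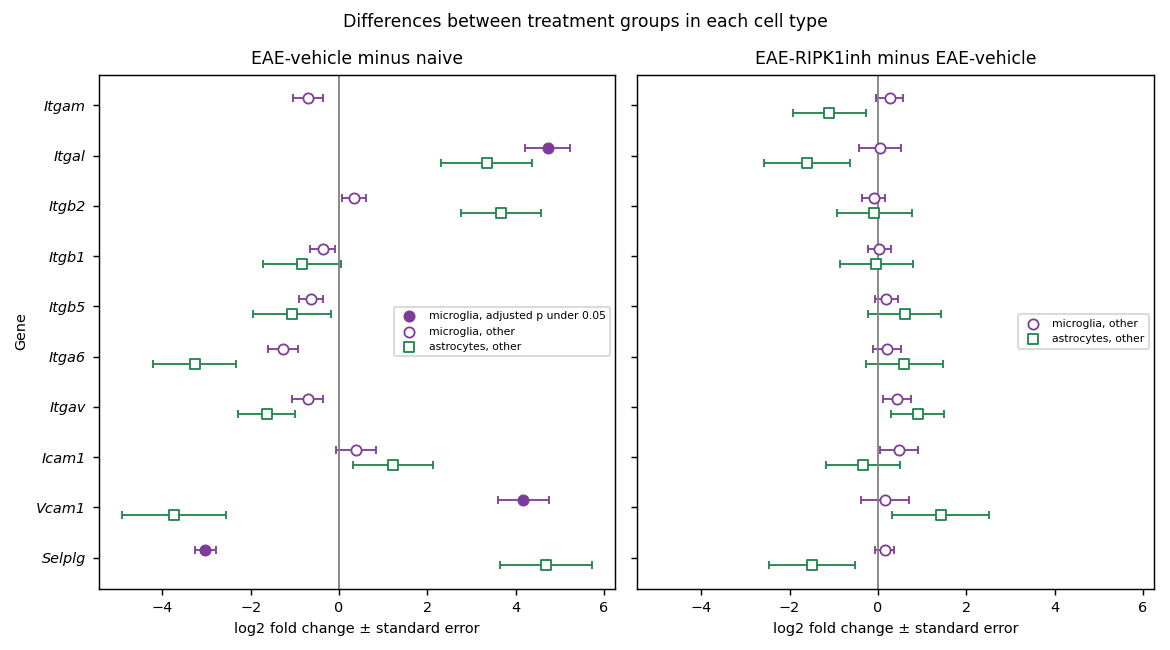
Log2 fold changes (horizontal axes, with standard errors from limma) of EAE-vehicle over naive and of EAE-RIPK1inh over EAE-vehicle for each gene (vertical axis), circles for microglia and squares for astrocytes, filled where the adjusted p was under 0.05. Itgam is left out for astrocytes on the left, since naive astrocytes had no signal. Vcam1 and Selplg lie on opposite sides of 0 in the 2 cell types on the left, and all values for EAE-RIPK1inh over EAE-vehicle are open.

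Whether EAE moved a member differently in the 2 cell types was tested as an interaction in 1 fit of all 30 libraries. Vcam1 and Selplg passed, 2 of 10 members, against 0.982% of all genes. Vcam1 was higher in EAE-vehicle than in naive microglia and lower in EAE-vehicle than in naive astrocytes, a difference of 7.92 ± 1.35 log2 units (limma adjusted p = 0.00183). Selplg went the opposite way, at -7.71 ± 1.09 (limma adjusted p = 2.00e-04). In astrocytes alone neither gene passed, and the part of other cells in the Selplg level of those libraries was not tested. Itgb2 (-3.33 ± 0.95) had an adjusted p of 0.0916, which fell to 0.0429 without naive astrocyte replicate 2 and to 0.0277 without EAE-RIPK1inh astrocyte replicate 1, and Itgal (1.38 ± 1.17) one of 0.781. For EAE-RIPK1inh over EAE-vehicle no member passed the interaction, by the adjusted or the unadjusted p, with a smallest adjusted p of 0.948, and 0% of all genes did. The fit takes the libraries as independent, although a microglial and an astrocyte library may come from 1 mouse. With libraries of the same treatment and number as a block, the EAE interactions of Vcam1 (limma adjusted p = 0.0108) and Selplg (0.00664) still passed. The labels do not say whether the same number marks 1 mouse.

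The difference between the cell types was thus smaller in EAE than in naive mice for Selplg and had the other sign for Vcam1. In naive mice, 6 of 10 members passed between microglia and astrocytes, against 11.9% of all genes (5.94% higher and 5.93% lower in microglia): Itgam, by which cells were gated and which had no signal in naive astrocytes, Itgb2 (7.60 ± 0.73), Itgb5 (4.02 ± 0.72), Icam1 (5.41 ± 0.78) and Selplg (10.64 ± 0.85) were higher in microglia, and Vcam1 (-5.33 ± 1.05) was lower. In EAE-vehicle mice 8 of 10 passed, against 13.8%, and all 8 were higher in microglia, as 7.89% of all genes were, among them Vcam1 (2.58 ± 0.85, adjusted p = 0.0412) and Selplg (2.93 ± 0.69, adjusted p = 0.00321). In EAE-RIPK1inh mice 8 of 10 passed, against 13%, again all higher in microglia (7.18% of all genes), with Itgal (3.18 ± 0.81) in place of Vcam1 (1.32 ± 0.94, adjusted p = 0.422). The shares of all genes were larger with genes under a mean level of 1 left out, which kept 11489 genes. Of these, 2019 were higher and 1832 lower in microglia in naive mice. In EAE-vehicle mice the counts were 2834 and 1853, and in EAE-RIPK1inh mice 2569 and 1811. Itgav passed in no group, at 0.05 ± 0.56, 0.98 ± 0.46 and 0.51 ± 0.50. The calls for Vcam1 and Itgb1 in EAE-vehicle mice were weak: leaving out EAE-vehicle microglia replicate 1, 2, 5 or 6, or EAE-vehicle astrocyte replicate 2, ended both, microglia replicate 3 or astrocyte replicate 1 or 6 ended that of Vcam1 alone, and microglia or astrocyte replicate 4 that of Itgb1 alone. With the EAE-RIPK1inh libraries fitted by themselves 5 members passed in place of 8, without Itgal, Itgb1 and Itga6. Without the 3 libraries with few genes, 6, 6 and 7 members passed in naive, EAE-vehicle and EAE-RIPK1inh mice. Itgam, itself a gate, is among the 6, 8 and 8 members counted in the main fits, where its pass is a description.

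Genes around the members were counted by role. Of 18 other integrin subunits measured, 2 rose and 0 fell in EAE-vehicle against naive microglia, against 2.37% and 1.56% of all genes. Their middle value was 0.11 on the log2 scale (all genes -0.02). Itgax, the CD11c alpha chain that also pairs with beta 2, rose from 1.07 ± 0.70 to 3.71 ± 0.33 (2.64 ± 0.39 SE, limma adjusted p = 9.66e-04). Itgb7, a beta chain of lymphocyte homing receptors, rose from 0.34 ± 0.42 to 3.14 ± 1.56 (2.80 ± 0.67, adjusted p = 0.0283). Both also passed in EAE-RIPK1inh against the same naive microglia, with Itgb3 (-2.02 ± 0.49, adjusted p = 0.0428), another beta chain that pairs with alpha v, as a fall. Itgax passed under every alternative run in both comparisons. The call of Itgb7 in EAE-vehicle was lost in 8 of 15 fits that each dropped a library (limma adjusted p = 0.0527 to 0.0742). Those libraries were naive replicate 1, 3 or 4, or EAE-vehicle replicate 1, 2, 3, 5 or 6. It was also lost with only the groups compared (0.0931) and without the libraries of under 9000 genes with signal (0.0652). The call of Itgb3 in EAE-RIPK1inh was lost in 12 of 15 such fits, with quality weights (0.129) and with only the groups compared (0.191). Itgax had a positive interaction with cell type (2.47 ± 0.52, adjusted p = 0.0132), which did not pass with libraries centred on their medians (0.106), with quality weights (0.128) or with the replicate block (0.0948). In astrocytes, no gene of this list passed in either comparison with naive.

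Of 22 integrin activators and adaptors, none passed between treatment groups in either cell type. The list holds the talins and kindlins, which bind the tails shown above, and partners of these proteins. At the study's criterion 5 were lower in EAE-vehicle microglia, as were 5.86% of all genes. The kindlins marked the cell type instead. Fermt3, the kindlin of blood cells, was at 7.59 ± 0.39 in naive microglia and 0.55 ± 0.97 in naive astrocytes (7.04 ± 0.72 SE, adjusted p = 1.83e-08), and Fermt2, the kindlin of most other tissues, at 0.25 ± 0.20 and 6.51 ± 0.21 (-6.25 ± 0.46, adjusted p = 1.97e-11). Skap1, an adaptor of T cells, was at 4.75 ± 1.96 in EAE-vehicle astrocytes and 0.26 ± 0.40 in EAE-vehicle microglia (-4.50 ± 0.81, adjusted p = 1.67e-04).

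Of 16 other immunoglobulin-type and junctional adhesion molecules, 3 fell and none rose in EAE-vehicle microglia, against 1.56% and 2.37% of all genes. Their median log2 fold change was -0.31. F11r, which encodes the junctional molecule JAM-A, went from 9.18 ± 0.35 to 7.50 ± 0.24 (-1.67 ± 0.30 SE, adjusted p = 0.00463), Jam2 from 5.62 ± 0.77 to 2.29 ± 1.32 (-3.33 ± 0.62, adjusted p = 0.00563), and Pecam1, an adhesion molecule of vessels, platelets and myeloid cells, from 3.15 ± 1.11 to 0.50 ± 0.40 (-2.65 ± 0.49, adjusted p = 0.00522; 0.0746 with quality weights). Endothelial markers were at a mean of 0.17 to 0.57 in naive microglia. All 3 also passed downward in EAE-RIPK1inh against naive, where dropping a single library ended the call in 11 of 15 fits for F11r and for Jam2 and in 2 of 15 for Pecam1. With quality weights, and with these groups fitted alone, F11r (adjusted p = 0.267 and 0.199) and Pecam1 (0.11 and 0.129) did not pass there. In astrocytes Ncam1, a neural adhesion molecule, fell from 7.77 ± 0.39 to 5.13 ± 0.72 (-2.64 ± 0.45, adjusted p = 0.0110), a call that ended without naive replicate 1 (adjusted p = 0.0517) or 3 (0.0595).

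Of 12 selectins and makers or carriers of their ligands, besides Selplg, 1 fell in EAE-vehicle microglia, as did 1.56% of all genes. It was Cd34, a sialomucin, which went from 8.03 ± 0.23 to 6.65 ± 0.41 (-1.38 ± 0.26 SE, limma adjusted p = 0.00688). The others had no pass in that comparison, and the median was 0.34. Of 20 matrix ligands of integrins, Fn1, fibronectin, rose in EAE-vehicle microglia from 0.26 ± 0.34 to 5.39 ± 0.75 (5.13 ± 0.40 SE, adjusted p = 2.50e-06), and Spp1, osteopontin, a ligand of alpha v integrins, was without signal in all 4 naive astrocyte libraries and at 5.75 ± 1.29 in EAE-vehicle astrocytes. Spp1 was at 6.11 ± 1.08 in naive microglia. Of all genes, 2.37% rose past the threshold in EAE-vehicle against naive microglia and 0.342% in EAE-vehicle against naive astrocytes. Across the 5 lists, no gene passed between EAE-RIPK1inh and EAE-vehicle in either cell type.

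The genes whose levels followed each member most closely over the 15 microglial libraries were named among 5690 genes with a mean level of at least 3. The libraries share their treatment groups, so these coefficients describe the group pattern as much as anything within groups. Itgal was closest to Ly6a (Pearson r = 0.983), Gsto1 (0.981) and Cxcl9 (0.976), and Vcam1 to Cfb (0.961), Ly6i (0.957) and Cxcl9 (0.956). Selplg was closest to Susd3 (0.981), P2ry13 (0.973), a microglial purine receptor, and Specc1 (0.970). For the members with little change between groups the closest genes were looser, from 0.926 for Icam1 with Tbc1d10a down to 0.785 for Itgav with Lims1, an adaptor of the integrin-linked kinase complex.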

How the data were processed

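Spinal cord microglia and astrocytes were sorted from naive, EAE-vehicle and EAE-RIPK1inh mice, and RNA was amplified from oligo(dT)-primed cDNA. The authors deposited log2 FPKM values per gene, aligned, quantified and normalized in OmicSoft Array Studio; the values showed that all 30 libraries had been brought to the same distribution (0 to 15.34). Read counts, depth, offset and annotation release are not given in the sources used here. The positions of 10 of 10 members equal those of GENCODE M21 on GRCm38. The deposited annotation marks 5 members (Itgam, Itga6, Itgav, Icam1 and Vcam1) as confounded; an effect of overlapping genes on their values was not tested.

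A gene was called without signal in a library where its value lay in the lowest stretch that rises with the row of the table. The groups were fitted in limma 3.58.1 (R 4.3.3; trended variance, no filter), per cell type for treatments and over all 30 libraries for cell types and interactions, with exact two-sided permutation tests of differences in means (scipy 1.17.1). The study's methods name a paired test; the labels do not say what pairs the mice, so fits were unpaired. Per the study, replicates are individual mice, 4, 6 and 5 per group for either cell type; the labels do not say which microglial and astrocyte libraries share a mouse, and the fits over all 30 libraries take them as independent. A simulation shifted 200 genes by 2 log2 units between EAE-vehicle and naive. The fit recovered 63 of the 200 in microglia, with 1 false call, and 7 of the 200 in astrocytes, with 2 false calls. Most shifts of that size were thus missed, above all in astrocytes, so a missing call does not show that levels were alike. The comparisons with EAE-RIPK1inh were not simulated.

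Members and gene lists were chosen with earlier results of these data known. Genes outside the members were named if they passed the adjusted threshold, at most 4 per list and comparison by size with a mean level of at least 1 (the text takes the treatment comparisons and examples from the cell type comparisons), or if they were the 3 closest to a member. Alternatives were another filter, offset, scaling, weighting, covariate, replicate block and set of libraries.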

Additional observations from a re-analysis of the deposited data

Results flagged for a closer look

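In 5 of 60 groups of member levels, 1 library stood apart from the rest of its group by Dixon's criterion; chance alone picks about 5% of groups. In naive astrocytes, replicate 2 was high in Itgal (1.88, next 0.29) and in Itgb2 (2.05, next 0.06), and it was 1 of 3 libraries with under 9000 genes with signal. Genes without signal read up to 1.69 in that library, so both values lay just above its floor. In the other naive astrocyte libraries they read at most 0.81. In EAE-vehicle astrocytes, replicate 4 was low in Itgal (1.00, next 4.07), and it had the lowest T cell marker mean of its group, 1.45. In EAE-RIPK1inh astrocytes, replicate 2 had Vcam1 at 0.05, without signal, against 4.80 or more in the others. In EAE-RIPK1inh microglia, replicate 3 was high in Itgav (5.10, next 4.52), and it had the highest monocyte and neutrophil marker mean of its group, 7.86.

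The change of EAE-vehicle over naive differed between microglial and astrocyte libraries by a tested interaction for Vcam1 (7.92 log2 units) and for Selplg (-7.71). The groups' levels are given above. In astrocytes alone neither gene passed (limma adjusted p = 0.282 for Vcam1 and 0.0640 for Selplg). The part of other cells in the Selplg level of astrocyte libraries was not tested. Leaving out each library in turn gave 7.35 to 8.54 for Vcam1 and -8.38 to -7.12 for Selplg, with adjusted p-values of at most 0.00677 and 9.62e-04.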

How the results depend on the processing

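Counts of members past the adjusted threshold moved as follows. In EAE-vehicle against naive astrocytes (0 members) the count was 3 with genes under a mean of 1 left out, 1 with libraries centred on their medians, 1 with quality weights, and 0 to 1 with a library left out (1 without EAE-vehicle replicate 4, EAE-RIPK1inh replicate 1 or EAE-RIPK1inh replicate 5). Quality weights gave 1 in EAE-RIPK1inh against naive astrocytes (0) and 4 in the interaction with EAE (2), and EAE-RIPK1inh mice fitted alone gave 5 between cell types (8). The causes were not tested. Deviations of same-numbered libraries from their group means correlated at -0.156 to 0.241. Differently numbered libraries were not compared in this way, so whether the numbers pair libraries was not settled. With the replicate numbers as a block, no count of members moved by over 1.5 times, and Itgal in EAE-vehicle microglia was 4.53. The calls of Itgb7, Jam2 and Cd34 in EAE-vehicle against naive microglia were lost. In EAE-RIPK1inh against naive microglia, those of Itgb7, Itgb3, F11r, Jam2, Pecam1 and Cd34 were lost. Also lost were those of Ncam1 and Spp1 in EAE-vehicle astrocytes, of Itgb1 between cell types in EAE-RIPK1inh mice and of the Itgax interaction.

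Signs changed for values near 0. For EAE-RIPK1inh over EAE-vehicle in astrocytes, Itgb2 became 0.82 with quality weights, 0.04 with genes with signal as a covariate and 0.07 with the block, Itgb1 0.27 with weights, 0.13 with the block and 0.04 with the offset, Itga6 -0.49 with weights and Icam1 0.06 with the block. In microglia, weights gave -0.12 for Itgal and 0.25 for Itgb2, and 0.04 for Itgam over naive. Between naive cell types, weights gave -0.02 for Itgal and -0.35 for Itgav, which was -0.06 centred and -0.45 without the 3 libraries of under 9000 genes with signal (a choice made after seeing the data). In the interaction with the inhibitor, weights gave -0.29 for Itgb1, 0.82 for Itga6 and 0.13 for Itgav, the offset -0.01 for Itgb1, and centring and leaving out those 3 libraries 0.04 and 0.13 for Itgb2.

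With 1 library left out, EAE-RIPK1inh over EAE-vehicle in microglia ran from -0.18 to 0.37 (Itgal), -0.27 to 0.06 (Itgb2), -0.12 to 0.16 (Itgb1), -0.01 to 0.29 (Itgb5) and -0.07 to 0.31 (Vcam1), in astrocytes from -0.60 to 0.63 (Itgb2), -0.54 to 0.73 (Itgb1), -0.07 to 1.07 (Itga6) and -0.92 to 0.06 (Icam1), and Itgb5 over naive from -1.26 to 0.05. Naive cell types ran from -0.35 to 0.57 (Itgal) and -0.51 to 0.33 (Itgav), the EAE interaction from -0.11 to 1.23 (Itgb5), and the inhibitor interaction from -0.73 to 0.50 (Itgb2), -0.70 to 0.57 (Itgb1), -0.78 to 0.12 (Itgb5) and -0.86 to 0.28 (Itga6). The calls for Itgal, Vcam1 and Selplg in microglia and for Vcam1 and Selplg in the EAE interaction held under every alternative run.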
